A study of Saccharomyces cerevisiae with 9 samples.

Results

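The comparison of frozen with unfrozen budding yeast rests on 6 of the 9 arrays of the series, 3 titled as frozen for 2 days and 3 titled as not frozen, and is described across 5396 of the genes on the array. The frozen 48 h group was BY4741 cells that had reached log phase (an optical density of 1) in rich YPD medium at 30 °C, had been washed and placed in distilled water, had been kept at -30 °C over 48 h, and had been thawed for 10 min in a 30 °C water bath. The unfrozen group was an aliquot of the same kind of suspension in water, set aside at 0 h before any freezing. Another group was frozen for 24 h and enters here mainly through the shared estimate of the spread. All groups carry the BY4741 background, a haploid MATa laboratory strain of Saccharomyces cerevisiae with auxotrophic deletions at HIS3, LEU2, MET17 (MET15) and URA3. Frozen cells differ from unfrozen ones in the freezing, the thaw and the hours spent in water together, and the labels describe no unfrozen cells held for those hours, so that these cannot be told apart. RNA was taken after the thaw and enriched for poly(A), so each value is a share of the messenger RNA on an array. Fewer intact cells and less RNA per cell cannot be told apart from such values.

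Yeast answers many stresses with one broad programme, in which the activators Msn2 and Msn4 raise stress genes while genes for ribosomes go down, and the heat shock factor Hsf1 raises chaperone genes. In glucose medium the genes for using other carbon sources are held down by glucose repression, and the activators Cat8 and Adr1 raise them once glucose is gone. Freezing and thawing are known to damage membranes and proteins and to generate reactive oxygen species, and trehalose, glycerol and membrane fluidity have each been tied to survival. Copper uptake, named in the title of the study, is run by the activator Mac1, which raises the plasma membrane transporters and reductases when copper is short.

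Values are given as scaled log2 signal, the log2 of the deposited intensity after all arrays were given one common median of their S. cerevisiae probe sets. Differences are frozen 48 h minus unfrozen on that scale, with the standard error of the limma fit. A gene was called when its Benjamini-Hochberg adjusted p from limma, over all 5396 genes, was under 0.05. Only such genes are said to have risen or fallen. The labels speak both of independent triplicates and of data from 2 independent experiments, so the p-values cover the spread among these arrays only, part of which may be technical. Median deposited signals were 303, 289 and 726 in the frozen 48 h arrays and 392, 201 and 335 in the unfrozen arrays. On each of the 9 arrays 97.4% to 98.7% of the S. cerevisiae probe sets lay above the level under which 95% of that array's S. pombe probe sets lay. Frozen 48 h replicates 1 and 3 were the least alike pair of the same group in the series (Pearson r = 0.898 across genes). Frozen 48 h and unfrozen arrays correlated at 0.924 to 0.968, so those replicates were less alike than any pair across these groups. The replicate 3 samples carry other protocol wording than most of the rest. Ribosomal RNA control signal, a measure of incomplete poly(A) enrichment, was 9.78, 7.64 and 9.80 in the frozen 48 h arrays and 5.45, 6.78 and 7.02 in the unfrozen arrays, so every frozen 48 h array lay above every unfrozen one. It moved with the groups, and its part in the results below was not tested. With this signal as a covariate in the fit, 0 genes were called by limma. An unadjusted p under 0.05 was then found in 252 genes, against 886 without the covariate. The strain checks fitted the labels, since LEU2, URA3 and MET17 lay at or near background in both groups, with at most 1.88 in the frozen 48 h arrays and at most 3.59 in the unfrozen arrays, where background is 2.21. HIS3 gave signal in every array and checks nothing, because the BY4741 allele is a partial deletion.

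After 48 h of freezing and the thaw, 113 genes rose and 44 fell. These 157 genes are 2.91% of all genes tested, with 2.09% called higher and 0.815% called lower. Among the called genes 89 rose and 34 fell by at least 2-fold, and 26 rose and 7 fell by at least 4-fold. The largest rises were in YNL194C, POT1, ADY2, JEN1 and SPG4. The largest falls were in IZH4, PLB2, OLE1, HEM13 and WSC4. In each of the 157 called genes the 3 frozen 48 h arrays did not overlap the 3 unfrozen arrays, which was so for 22.5% of all genes tested (11.9% higher and 10.6% lower). The median difference over all genes was -0.03, and 2859 of the 5396 genes lay below 0. Genes that rose had a median level of 8.41 in the frozen 48 h arrays and 6.98 in the unfrozen arrays, and genes that fell had 7.66 and 8.89, on the scaled log2 scale.

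**Figure D1:**
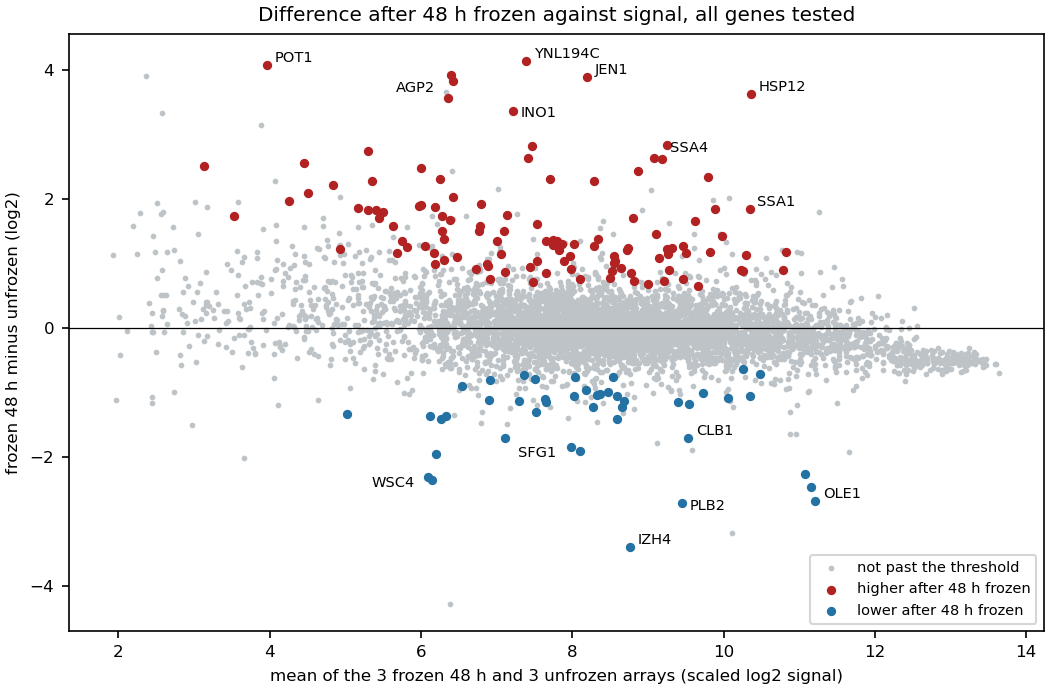
Difference in scaled log2 signal (frozen 48 h minus unfrozen, vertical axis) against the mean scaled log2 signal over both groups (horizontal axis), with 1 point for each of 5396 genes. The 113 genes that rose lie above 0 and the 44 that fell lie below 0, while genes with a mean signal above 12 lie mostly somewhat below 0 (median -0.48 over 252 genes).

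How many genes were called, and in which direction, depended on the scaling, the frozen 24 h arrays in the fit and single arrays. With only the frozen 48 h and unfrozen arrays fitted, 84 genes were called, and 82 of the 157 stayed called. Named genes that lost their call in that fit included OLE1, IZH4, HEM13, MIG2, CRC1, PYC1, SPS19, ERO1, ATG9, IDP2 and CDC20. In the deposited values without scaling, 46 genes were higher and 8 lower, around a median of 0.40 over all genes. There 37 of the 157 genes stayed called. Among the genes that lost their call there were CTT1, DCS2, HSP42, GLC3, GCY1, ADR1, PYK2, CLB1, SFG1 and NRG2. Each of these stayed called without any single array. When the median was taken over every probe set, fission yeast ones included, 57 genes were higher and 208 lower, around a median of -0.37. All 157 called genes kept the sign of their difference under every alternative tried. With arrays left out this was fixed in advance, because the groups did not overlap in any of these genes. Leaving out 1 array at a time gave 44 to 153 calls, with the lowest counts without unfrozen replicate 2 (44), unfrozen replicate 1 (47) and frozen 48 h replicate 2 (70). Without replicate 2 of every group 0 genes were called by limma, although 403 had an unadjusted p under 0.05, against 886 with all arrays. Of the 157 genes, 39 stayed called whichever single array was left out. For the 15 genes that rose most, the differences were 2.15 to 3.99 within replicates 1 and 2 and 2.20 to 5.64 within replicate 3. For the 15 that fell most they were -3.76 to -1.17 within replicates 1 and 2 and -3.45 to -0.70 within replicate 3. Both sets were picked from these same arrays for size and for groups that did not overlap, so the signs here were fixed in advance.

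Several heat shock chaperone genes rose after freezing. Of 28 heat shock chaperone genes under Hsf1, 7 rose and 0 fell, which is 25% against 2.09% of all genes called higher, and the median difference of the list was 0.60 against -0.03 over all genes. SSA4, which encodes a stress-inducible cytosolic Hsp70, stood at 10.57, 10.03 and 10.91 in the frozen 48 h arrays, against 7.90, 8.09 and 7.64 in the unfrozen arrays. All 3 frozen 48 h arrays exceeded all 3 unfrozen arrays, and the difference was 2.63 ± 0.29 (adjusted p = 0.00264 by limma), or 6.17-fold. HSP82, the stress-inducible Hsp90, stood at 10.37, 9.89 and 10.93 in the frozen 48 h arrays, against 7.16, 7.42 and 8.73 in the unfrozen arrays, a difference of 2.63 ± 0.43 (adjusted p = 0.0114). Unfrozen replicate 3 was the highest of the unfrozen arrays for HSP82 and still lay below every frozen 48 h array. SSA1, a cytosolic Hsp70 that is also made without stress, rose by 1.84 ± 0.23 (adjusted p = 0.00324), and HSP42, a small heat shock protein that collects misfolded proteins, rose by 1.46 ± 0.18 (adjusted p = 0.00282). The other members that rose were BTN2, which helps sort misfolded proteins (2.43), HSP78, the mitochondrial disaggregase (1.35), and HSP104, the cytosolic disaggregase (1.18). Several members that every growing cell uses did not pass the test. HSC82, the Hsp90 made at all times, differed by 0.01 (adjusted p = 0.993), SSA2 by 0.08 (adjusted p = 0.917) and the regulator HSF1 itself by 0.37 (adjusted p = 0.446). SSA4, SSA1 and HSP42 stayed called without any single array, whereas the call was lost for HSP82 without unfrozen replicate 1 or 2 (highest adjusted p = 0.0689). It was lost too for BTN2 without unfrozen replicate 1 or 2 (highest adjusted p = 0.0881). Further losses were those of HSP78 without any one of unfrozen replicates 1 and 2 and frozen 48 h replicate 2 (highest adjusted p = 0.130) and of HSP104 without unfrozen replicate 1, 2 or 3 (highest adjusted p = 0.128).

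Several genes of the general stress programme also rose. Of 29 genes under Msn2 and Msn4, 8 rose and 0 fell (27.6% against 2.09% of all genes called higher), with a median difference of 0.91. HSP12, a small hydrophilic protein that protects membranes against drying and freezing stress, stood at 12.15, 12.31 and 12.08 in the frozen 48 h arrays, against 8.96, 8.96 and 7.73 in the unfrozen arrays. The frozen 48 h arrays lay close together and far above the unfrozen ones, a difference of 3.63 ± 0.31 (adjusted p = 0.00180) or 12.3-fold. NQM1, a transaldolase related to TAL1, stood at 8.49, 8.78 and 9.32 in the frozen 48 h arrays, against 6.48, 6.09 and 7.08 in the unfrozen arrays and rose by 2.31 ± 0.27 (adjusted p = 0.00264). CTT1, the cytosolic catalase, stood at 7.87, 8.17 and 8.01 in the frozen 48 h arrays, against 6.32, 6.06 and 6.43 in the unfrozen arrays, with no overlap, and rose by 1.75 ± 0.20 (adjusted p = 0.00264). DCS2, a stress-induced relative of the cap-scavenging enzyme Dcs1, rose by 1.30 ± 0.17 (adjusted p = 0.00439). The other members called were SOL4 (1.35) of the pentose phosphate pathway, MSC1 (1.23), the aldehyde dehydrogenase ALD3 (1.16) and PGM2 (1.15), the main phosphoglucomutase. HSP12, NQM1, CTT1 and DCS2 stayed called without any single array. The call was lost for MSC1 without unfrozen replicate 1 or 2 (highest adjusted p = 0.0961) and for PGM2 without any one of unfrozen replicates 1 to 3 and frozen 48 h replicate 2 (highest adjusted p = 0.0957). It was also lost for SOL4 without any one of unfrozen replicates 1 to 3, frozen 48 h replicates 1 and 2 and frozen 24 h replicates 1 and 2 (highest adjusted p = 0.203). The same held for ALD3 without any one of unfrozen replicates 1 to 3, frozen 48 h replicates 1 and 2 and frozen 24 h replicates 1 and 2 (highest adjusted p = 0.135). The genes for the activators, MSN2 (0.02, adjusted p = 0.978) and MSN4 (-0.16, adjusted p = 0.842), did not pass the test.

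**Figure D2:**
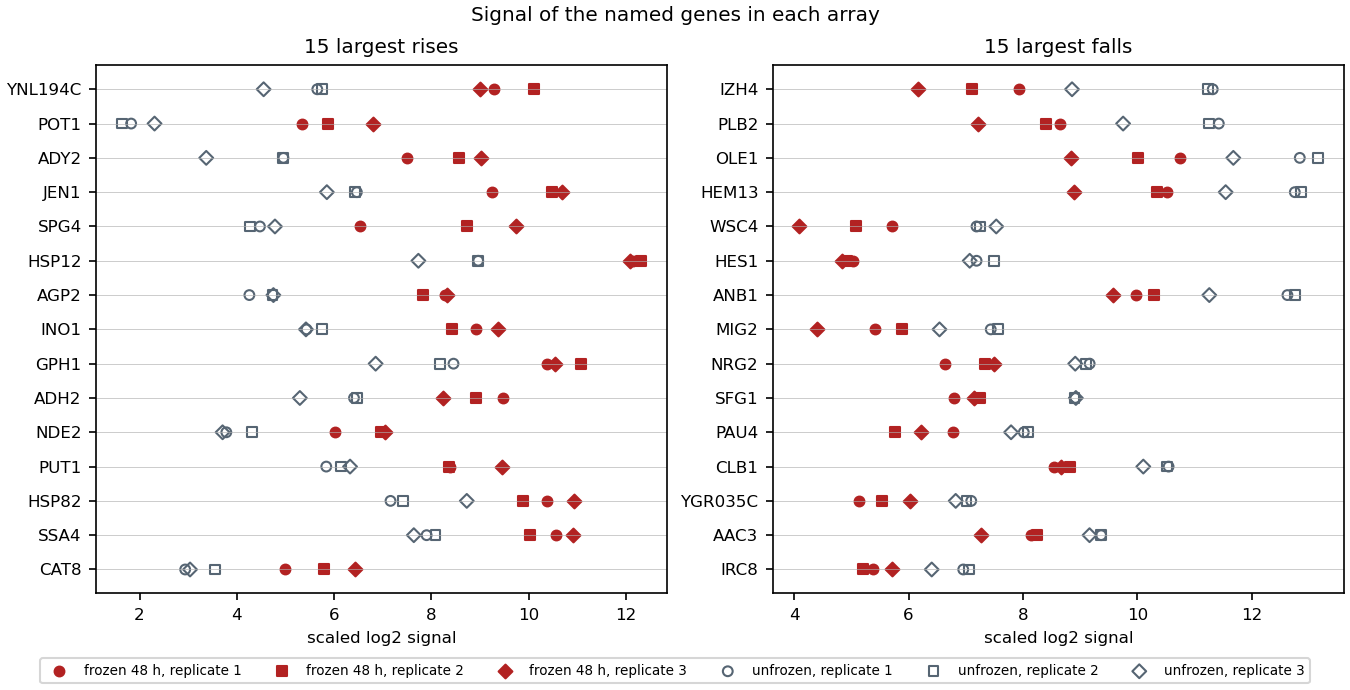
Scaled log2 signal of the 15 genes that rose most (left) and the 15 that fell most (right), with 1 point for each frozen 48 h array (filled) and each unfrozen array (open). In every gene shown the filled points lie on one side of the open ones, and the replicate 3 array is the most extreme of its group for several genes, among them IZH4 and OLE1.

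Carbohydrate stores were represented by both making and breaking enzymes. Of 19 trehalose and glycogen genes 4 rose and 0 fell (21.1% against 2.09% of all genes called higher), with a median difference of 0.48. GPH1, glycogen phosphorylase, which releases glucose from glycogen, stood at 10.39, 11.08 and 10.55 in the frozen 48 h arrays, against 8.46, 8.18 and 6.86 in the unfrozen arrays and rose by 2.84 ± 0.46 (adjusted p = 0.0109). GLC3, the glycogen branching enzyme, rose by 1.65 ± 0.19 (adjusted p = 0.00264). Of the trehalases, NTH1 for the neutral enzyme rose by 1.15 ± 0.17 (adjusted p = 0.00797) and ATH1 for the acid enzyme by 0.77 ± 0.17 (adjusted p = 0.0409). NTH2, the other neutral enzyme, was at 0.61 (adjusted p = 0.125). The trehalose synthesis genes did not pass the test, with TPS1 at 0.29 (adjusted p = 0.660), TPS2 at 0.84 (adjusted p = 0.193) and TSL1 at 0.87 (adjusted p = 0.300). GLC3 stayed called without any single array. The call was lost for GPH1 without frozen 48 h replicate 2 (highest adjusted p = 0.0545), for NTH1 without unfrozen replicate 1 or 2 (highest adjusted p = 0.0548), and for ATH1 whichever single array was left out (highest adjusted p = 0.159).

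Of 16 genes for glycerol and water channels only GCY1, a glycerol dehydrogenase, rose (6.25% against 2.09% of all genes called higher). It rose by 1.004 ± 0.13 (adjusted p = 0.00401), and the list had a median of 0.28 (-0.06 with the median of every probe set as the scale). None of 28 oxidative stress defence genes was called, with a median of 0.16 (-0.18 with that scaling). The smallest p-values among them belonged to PRX1, the mitochondrial peroxiredoxin (0.77, adjusted p = 0.0542), and GPX1, a glutathione peroxidase (0.79, adjusted p = 0.125). Of 10 stationary phase genes 2 rose (20% against 2.09% of all genes called higher). They were SPG4, by 3.83 ± 0.72 (adjusted p = 0.0215), and SPG1, by 2.48 ± 0.51 (adjusted p = 0.0347), both named for survival in stationary phase. SPG4 stood at 6.54, 8.74 and 9.75 in the frozen 48 h arrays, against 4.48, 4.27 and 4.79 in the unfrozen arrays. Its frozen 48 h arrays spanned more than 3 units, but the lowest of them still exceeded every unfrozen array. The call was lost for SPG4 without any one of unfrozen replicates 1 and 2 and frozen 48 h replicate 2 (highest adjusted p = 0.114), and for SPG1 without any one of unfrozen replicates 1 to 3, frozen 48 h replicates 2 and 3 and frozen 24 h replicate 2 (highest adjusted p = 0.168).

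Of 9 acetate, lactate and carnitine transport genes 5 rose and 0 fell (55.6% against 2.09% of all genes called higher), with a median difference of 1.69. ADY2, the acetate transporter, stood at 7.49, 8.57 and 9.01 in the frozen 48 h arrays, against 4.96, 4.96 and 3.37 in the unfrozen arrays and rose by 3.93 ± 0.68 (adjusted p = 0.0160). JEN1, the lactate and pyruvate permease, stood at 9.25, 10.47 and 10.69 in the frozen 48 h arrays, against 6.47, 6.42 and 5.85 in the unfrozen arrays and rose by 3.89 ± 0.56 (adjusted p = 0.00638). AGP2, a plasma membrane protein needed for carnitine uptake, stood at 8.28, 7.83 and 8.31 in the frozen 48 h arrays, against 4.26, 4.74 and 4.75 in the unfrozen arrays and rose by 3.56 ± 0.33 (adjusted p = 0.00233). For each of these transporters the lowest frozen 48 h array was more than 2 units above the highest unfrozen one. CRC1, the mitochondrial carnitine carrier, rose by 2.21 ± 0.42 (adjusted p = 0.0217), and CAT2, carnitine acetyltransferase, rose by 0.94 ± 0.20 (adjusted p = 0.0381). AGP2 and JEN1 stayed called without any single array, and the call was lost for ADY2 without any one of unfrozen replicates 1 and 2 and frozen 48 h replicate 2 (highest adjusted p = 0.0717) and for CRC1 without any one of unfrozen replicate 2 and frozen 48 h replicates 1 and 2 (highest adjusted p = 0.0883). CAT2 lost its call whichever single array but unfrozen replicate 3 was left out (highest adjusted p = 0.186).

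Of 15 gluconeogenesis and glyoxylate cycle genes 4 rose and 0 fell (26.7% against 2.09% of all genes called higher), with a median difference of 0.74. Both activators of these genes were among the 4. CAT8 stood at 5.001, 5.79 and 6.42 in the frozen 48 h arrays, against 2.94, 3.55 and 3.04 in the unfrozen arrays and rose by 2.56 ± 0.40 (adjusted p = 0.00913), and ADR1 stood at 7.42, 7.39 and 6.63 in the frozen 48 h arrays, against 5.55, 5.55 and 5.13 in the unfrozen arrays and rose by 1.73 ± 0.26 (adjusted p = 0.00752). In both genes the groups were apart by over 1 unit. PYC1, pyruvate carboxylase, rose by 1.24 ± 0.24 (adjusted p = 0.0239), and IDP2, the cytosolic isocitrate dehydrogenase, by 0.91 ± 0.20 (adjusted p = 0.0449). The classical enzymes of the route, PCK1 (-0.10, adjusted p = 0.931), FBP1 (1.27, adjusted p = 0.206), ICL1 (0.67, adjusted p = 0.535) and MLS1 (0.74, adjusted p = 0.367), did not pass the test. The call on ADR1 held without any single array, and the call was lost for CAT8 without unfrozen replicate 1 (highest adjusted p = 0.0504), for PYC1 without unfrozen replicate 1 or 2 (highest adjusted p = 0.120), and for IDP2 without any one of unfrozen replicates 1 to 3, frozen 48 h replicates 1 to 3 and frozen 24 h replicates 1 and 2 (highest adjusted p = 0.204).

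Of 14 peroxisomal fatty acid oxidation genes 2 rose (14.3% against 2.09% of all genes called higher), with a median of 0.42. POT1, the thiolase of the last step of beta-oxidation, stood at 5.33, 5.88 and 6.81 in the frozen 48 h arrays, against 1.83, 1.64 and 2.31 in the unfrozen arrays. Of the 3 unfrozen arrays 2 were at or under background, and the difference of 4.08 ± 0.54 (adjusted p = 0.00439) was 3.76 with those arrays set to the background level. SPS19, a peroxisomal dienoyl-CoA reductase, rose by 1.499 ± 0.28 (adjusted p = 0.0212), and that call was lost without unfrozen replicate 1 or 2 (highest adjusted p = 0.115). PUT1, proline oxidase, the first enzyme of proline breakdown, stood at 8.39, 8.36 and 9.46 in the frozen 48 h arrays, against 5.84, 6.15 and 6.33 in the unfrozen arrays, without overlap, and rose by 2.63 ± 0.37 (adjusted p = 0.00584).

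In glycolysis and fermentation 2 of 19 genes rose and 0 fell (10.5% against 2.09% of all genes called higher). The list's median was -0.40 (0.04 after quantile normalization and 0.03 in the values as deposited). Relative to the unfrozen mean it was -0.02, -0.16 and -1.12 in the 3 frozen 48 h arrays. Both that rose are isoforms linked to glucose-poor conditions. ADH2, the glucose-repressed alcohol dehydrogenase that turns ethanol into acetaldehyde, stood at 9.48, 8.93 and 8.23 in the frozen 48 h arrays, against 6.41, 6.47 and 5.30 in the unfrozen arrays and rose by 2.82 ± 0.40 (adjusted p = 0.00607). PYK2, the minor pyruvate kinase, stood at 9.26, 9.05 and 8.79 in the frozen 48 h arrays, against 7.54, 7.57 and 7.85 in the unfrozen arrays and rose by 1.38 ± 0.20 (adjusted p = 0.00612). Both stayed called without any single array. Of 14 hexose transporters and glucose sensors measured, out of 18 listed, 1 rose (7.14% against 2.09% of all genes called higher). It was HXT9 (1.26 ± 0.27, adjusted p = 0.0424), a call that was lost without frozen 48 h replicate 1 or 2, any frozen 24 h array or any unfrozen array (highest adjusted p = 0.185). HXT11, a related transporter that is not in the list, also rose, by 2.27 ± 0.50 (adjusted p = 0.0433). It was chosen after its values were seen, and its call was lost whichever single array other than frozen 24 h replicate 3 was left out (highest adjusted p = 0.189). Their family holds near-identical copies, so that the signals may be shared.

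None of 17 tricarboxylic acid cycle genes was called (median 0.08, or -0.26 with the median of every probe set as the scale), with CIT3 at 1.05 (adjusted p = 0.0879) and CIT1 at 0.52 (adjusted p = 0.159). The median of 34 genes of the respiratory chain and ATP synthase was -0.14 (0.28 in the values as deposited). Of them 1 rose (2.94%, near the 2.09% of all genes called higher). That gene was NDE2, an external NADH dehydrogenase of the inner mitochondrial membrane, which stood at 6.02, 6.96 and 7.05 in the frozen 48 h arrays, against 3.79, 4.31 and 3.71 in the unfrozen arrays and rose by 2.74 ± 0.37 (adjusted p = 0.00466). It stayed called without any single array.

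**Figure D3:**
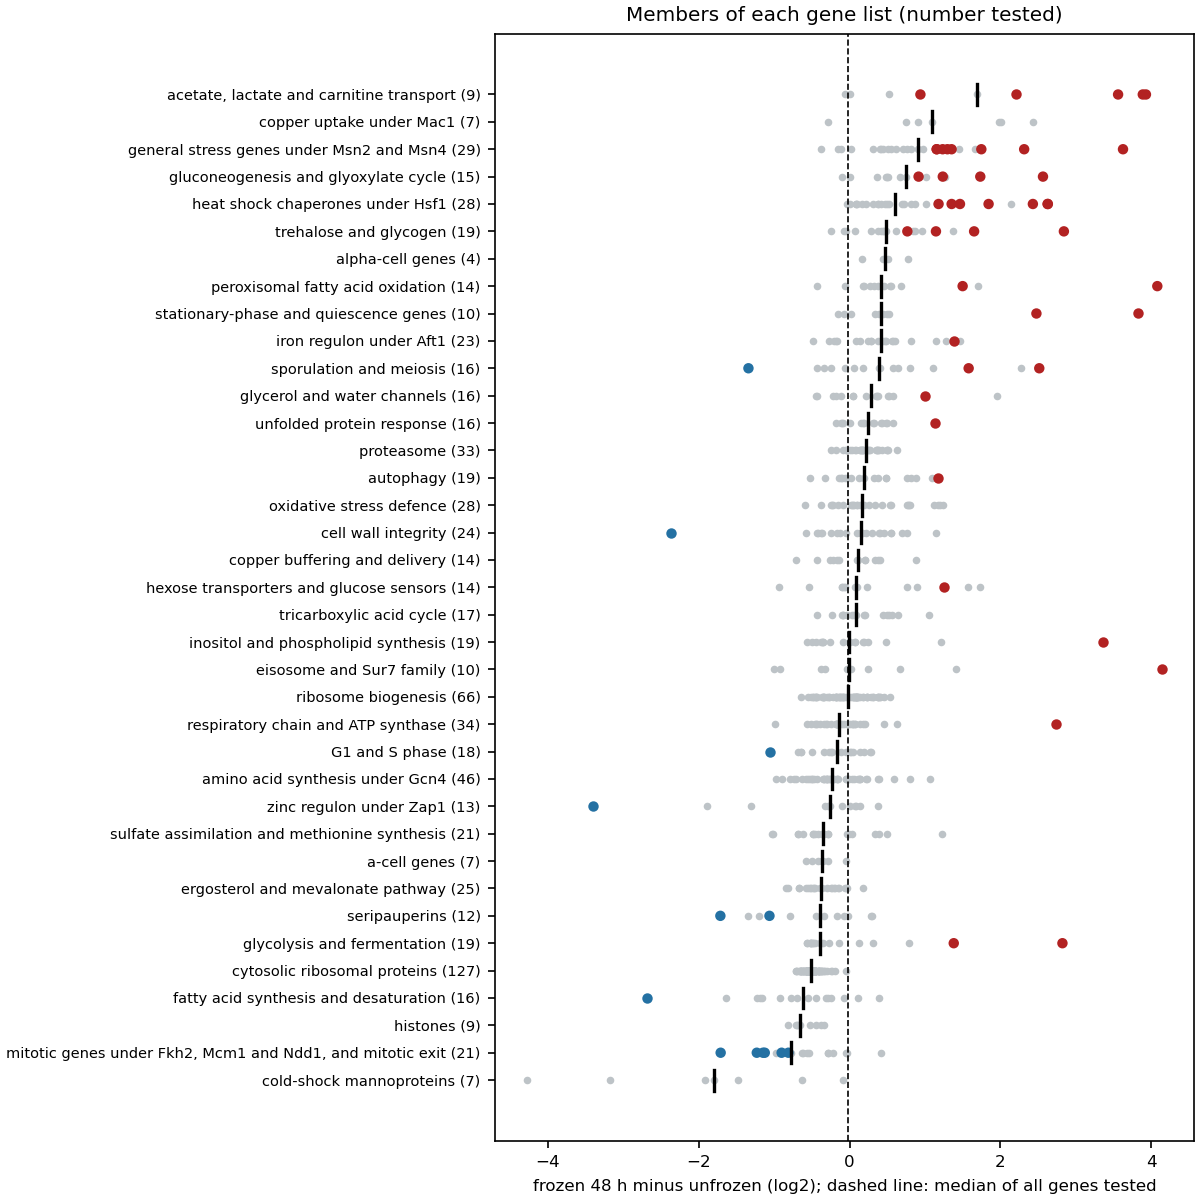
Difference in scaled log2 signal (frozen 48 h minus unfrozen, horizontal axis) of every measured gene in each gene list (rows), with called genes in colour and the list median as a bar. Chaperone, general stress and acetate, lactate and carnitine transport genes lie mostly right of 0 with several called, and mitotic genes lie mostly left of 0.

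YNL194C, a member of the Sur7 family of eisosome-associated membrane proteins, had the largest rise of all genes, with 9.28, 10.10 and 9.001 in the frozen 48 h arrays, against 5.66, 5.75 and 4.55 in the unfrozen arrays. The difference was 4.14 ± 0.45 (adjusted p = 0.00264), or 17.7-fold. YNL194C was the only called gene of 10 in the eisosome and Sur7 list (10% against 2.09% of all genes called higher), whose median was -0.01. INO1, which makes inositol phosphate for the phospholipid phosphatidylinositol, stood at 8.93, 8.42 and 9.37 in the frozen 48 h arrays, against 5.43, 5.76 and 5.42 in the unfrozen arrays and rose by 3.37 ± 0.38 (adjusted p = 0.00264). It was likewise the only one of 19 inositol and phospholipid synthesis genes called (5.26% against 2.09% of all genes called higher). The median of that list was -0.00. YNL194C and INO1 stayed called without any single array.

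OLE1, the desaturase that makes the unsaturated fatty acids of yeast membranes, fell. It stood at 10.75, 10.02 and 8.83 in the frozen 48 h arrays, against 12.84, 13.15 and 11.68 in the unfrozen arrays, so every frozen 48 h array lay below every unfrozen one, a difference of -2.69 ± 0.55 (adjusted p = 0.0310). It was the only one of 16 fatty acid synthesis and desaturation genes called (6.25% against 0.815% of all genes called lower). The median of the list was -0.62, or -0.11, -0.65 and -1.015 in the 3 frozen 48 h arrays relative to the unfrozen mean. PLB2, a phospholipase B, stood at 8.64, 8.41 and 7.22 in the frozen 48 h arrays, against 11.42, 11.26 and 9.75 in the unfrozen arrays and differed by -2.72 ± 0.51 (adjusted p = 0.0211). IZH4, a membrane protein of the progestin and adipoQ receptor family that responds to zinc, had the largest fall among the called genes, with 7.93, 7.11 and 6.16 in the frozen 48 h arrays, against 11.32, 11.23 and 8.86 in the unfrozen arrays and a difference of -3.40 ± 0.70 (adjusted p = 0.0337). In IZH4 unfrozen replicate 3 lay more than 2 units below the other unfrozen arrays, and frozen 48 h replicate 3 was the lowest of its group. The call was lost for OLE1 without any one of unfrozen replicates 1 and 2, frozen 48 h replicate 2 and frozen 24 h replicate 2 (highest adjusted p = 0.155), for PLB2 without any one of unfrozen replicates 1 and 2 and frozen 48 h replicate 2 (highest adjusted p = 0.117), and for IZH4 without any one of unfrozen replicates 1 and 2, frozen 48 h replicates 2 and 3 and frozen 24 h replicate 2 (highest adjusted p = 0.168).

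HES1, an oxysterol-binding protein, stood at 5.03, 4.93 and 4.84 in the frozen 48 h arrays, against 7.19, 7.50 and 7.07 in the unfrozen arrays. Its frozen 48 h arrays were nearly equal, and it differed by -2.32 ± 0.49 (adjusted p = 0.0387). None of 25 ergosterol and mevalonate pathway genes was called. Of them 24 lay below 0, as did 2859 of all 5396 genes, and the median was -0.38 (0.04 in the values as deposited). Relative to the unfrozen mean, the list medians were -0.02, -0.29 and -0.77 in the 3 frozen 48 h arrays. The smallest p-values in that pathway were those of ERG5 (-0.85, adjusted p = 0.0542) and ERG28 (-0.81, adjusted p = 0.181). Genes outside the lists that fell included HEM13, the oxygen-requiring coproporphyrinogen oxidase of haem synthesis (-2.47 ± 0.54, adjusted p = 0.0424), ANB1, the low-oxygen isoform of translation factor eIF5A (-2.26 ± 0.47, adjusted p = 0.0347), and AAC3, the low-oxygen isoform of the mitochondrial ADP/ATP carrier (-1.41 ± 0.31, adjusted p = 0.0433). HEM13 stood at 10.51, 10.35 and 8.89 in the frozen 48 h arrays, against 12.75, 12.86 and 11.54 in the unfrozen arrays. ANB1 stood at 9.98, 10.28 and 9.58 in the frozen 48 h arrays, against 12.62, 12.75 and 11.26 in the unfrozen arrays. In both, replicate 3 was the lowest array of its group, and the groups did not overlap. With single arrays left out, the call was lost for HES1 without any one of unfrozen replicates 1 to 3, frozen 48 h replicates 1 to 3 and frozen 24 h replicate 2 (highest adjusted p = 0.181), for HEM13 without any one of unfrozen replicates 1 and 2, frozen 48 h replicates 2 and 3 and frozen 24 h replicate 1 (highest adjusted p = 0.195), for ANB1 without any one of unfrozen replicates 1 and 2, frozen 48 h replicates 1 to 3 and frozen 24 h replicate 1 (highest adjusted p = 0.169), and for AAC3 without any one of unfrozen replicates 1 to 3, frozen 48 h replicates 2 and 3 and frozen 24 h replicates 1 and 2 (highest adjusted p = 0.190).

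WSC4, one of the cell surface sensors of the cell wall integrity pathway, stood at 5.71, 5.09 and 4.08 in the frozen 48 h arrays, against 7.19, 7.25 and 7.53 in the unfrozen arrays and differed by -2.36 ± 0.38 (adjusted p = 0.0109). It was the only one of 24 cell wall integrity genes called (4.17% against 0.815% of all genes called lower). The median of the list was 0.16 (-0.18 with the median of every probe set as the scale). WSC4 was no longer called without unfrozen replicate 1 or 2 (highest adjusted p = 0.0591). None of the 7 cold-shock mannoproteins, cell wall proteins of the TIR and DAN families induced by cold or low oxygen, was called. Their median was -1.79 (-0.76, -1.25 and -3.44 in the 3 frozen 48 h arrays relative to the unfrozen mean), with DAN1 at -4.28 ± 1.27 (adjusted p = 0.122) and TIR1 at -3.18 ± 0.78 (adjusted p = 0.0648). DAN1 stood at 5.70, 4.32 and 2.73 in the frozen 48 h arrays, against 8.51, 8.51 and 8.57 in the unfrozen arrays. TIR1 stood at 9.58, 8.92 and 7.06 in the frozen 48 h arrays, against 12.20, 12.37 and 10.53 in the unfrozen arrays. In both genes the groups did not overlap, and the frozen 48 h arrays spanned more than 2 units, with replicate 3 lowest. Of 12 seripauperins measured, out of 24 listed, 2 fell (16.7% against 0.815% of all genes called lower). They were PAU4 (-1.71 ± 0.26, adjusted p = 0.00886) and PAU18 (-1.06 ± 0.23, adjusted p = 0.0390), and the list median was -0.39 (0.03 in the values as deposited). Seripauperins are near-identical in sequence, and the PAU4 and PAU18 probe sets are both marked by the manufacturer as able to bind other transcripts. The 2 values may therefore describe the family rather than single members. Neither held throughout, since the call was lost for PAU4 without unfrozen replicate 1 or 2 (highest adjusted p = 0.0594) and for PAU18 without any one of unfrozen replicates 1 and 2, frozen 48 h replicates 2 and 3 and frozen 24 h replicate 2 (highest adjusted p = 0.190).

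The copper transporter gene CTR1 and the reductase genes FRE1 and FRE7 were about 2 units or more higher on average after freezing, but did not pass the test across all genes. Of 7 copper uptake genes under Mac1 none was called, and the median difference was 1.09. An unadjusted p under 0.05 by limma was found in 5 of them, and in 16.4% of all genes tested. CTR1, the high-affinity copper transporter of the plasma membrane, stood at 10.97, 10.85 and 10.74 in the frozen 48 h arrays, against 7.995, 7.99 and 10.62 in the unfrozen arrays. The 3 frozen 48 h arrays and unfrozen replicate 3 were alike, and unfrozen replicates 1 and 2 were nearly 3 units lower, which gave 1.99 ± 0.58 (adjusted p = 0.117). FRE1, the cell surface reductase that prepares copper and iron for uptake, stood at 11.42, 10.89 and 10.95 in the frozen 48 h arrays, against 8.38, 8.01 and 10.84 in the unfrozen arrays, a difference of 2.01 ± 0.59 (adjusted p = 0.119). FRE7, another reductase raised by low copper, stood at 8.67, 7.46 and 6.74 in the frozen 48 h arrays, against 4.44, 4.36 and 6.76 in the unfrozen arrays, a difference of 2.44 ± 0.68 (adjusted p = 0.1002). The difference in CTR1 was 2.92 within replicates 1 and 2 and 0.12 within replicate 3, that in FRE1 was 2.96 within replicates 1 and 2 and 0.11 within replicate 3, and that in FRE7 was 3.67 within replicates 1 and 2 and -0.03 within replicate 3. The remaining members differed by 1.09 in REE1, 0.90 in CTR3, the second high-affinity transporter, 0.75 in IRC7 and -0.28 in MAC1, the activator (0.14 in the values as deposited).

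These calls turned on unfrozen replicate 3 and on the scaling. Without that array CTR1 was called at 2.86 (adjusted p = 0.000896), FRE1 at 2.89 (adjusted p = 0.00218), FRE7 at 3.22 (adjusted p = 0.0175) and CTR3 at 1.41 (adjusted p = 0.0175). In the values as deposited CTR1 was called at 2.41 (adjusted p = 0.00427), FRE7 at 2.86 (adjusted p = 0.0018) and FRE1 at 2.43 (adjusted p = 0.0018). When replicate 3 of every group was left out, REE1 (1.88, adjusted p = 0.00126) and IRC7 (1.5, adjusted p = 0.0101) were called as well, beside CTR1, FRE1, FRE7 and CTR3. The frozen 24 h arrays had CTR1 at 11.10, 10.55 and 10.58, FRE1 at 11.22, 10.68 and 11.00 and FRE7 at 7.96, 7.01 and 6.63.

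**Figure D4:**
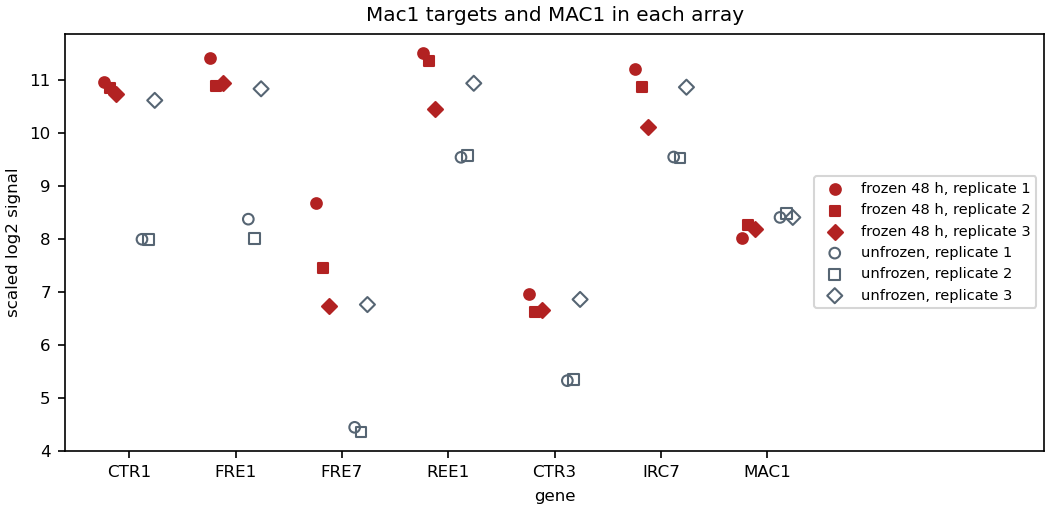
Scaled log2 signal (vertical axis) of the 7 copper uptake genes in the frozen 48 h arrays and the unfrozen arrays, with 1 point for each array. In CTR1, FRE1 and FRE7 unfrozen replicates 1 and 2 lie below the frozen 48 h arrays, and unfrozen replicate 3 lies near them.

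Copper buffering and delivery genes showed no called member. Of 14 measured, none was called, with a median of 0.11 (-0.23 with the median of every probe set as the scale). An unadjusted p under 0.05 by limma was found in 2 of them, and in 16.4% of all genes tested. CUP1-1, the copper metallothionein, stood at 13.29, 13.72 and 12.88 in the frozen 48 h arrays, against 13.83, 14.57 and 13.60 in the unfrozen arrays, with overlapping groups and a difference of -0.71 ± 0.41 (adjusted p = 0.441). SOD1, the copper and zinc superoxide dismutase, stood at 12.91, 12.25 and 11.64 in the frozen 48 h arrays, against 11.87, 11.86 and 12.45 in the unfrozen arrays, again with overlap (0.21 ± 0.39, adjusted p = 0.839; -0.13 with the median of every probe set as the scale). CCC2, the copper pump of the secretory pathway, differed by 0.88 (adjusted p = 0.222) and CCS1, the copper chaperone of SOD1, by -0.44 (adjusted p = 0.231). COX23 and COX19, which serve copper delivery to cytochrome oxidase, differed by 0.40 and 0.38, and SCO1 by 0.33 (-0.00498 with the median of every probe set as the scale). The members with smaller differences were ATX1 (-0.25), COX17 (-0.17), COX11 (-0.22) and SCO2 (-0.14), which were all above 0 in the values as deposited (0.17, 0.26, 0.20 and 0.28), and CTR2 (0.10), CUP2 (0.20) and CRS5 (0.12), which were all below 0 with the median of every probe set as the scale (-0.24, -0.14 and -0.22).

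The median of 23 genes of the iron regulon under Aft1 was 0.41. Relative to the unfrozen mean, the list medians were 1.03, 0.22 and 0.07 in the frozen 48 h arrays. They were -0.23, -0.32 and 0.58 in the unfrozen arrays, so unfrozen replicate 3 lay above frozen 48 h replicates 2 and 3. Of the 23 genes 1 rose (4.35% against 2.09% of all genes called higher). It was FRE4, a reductase for siderophore-bound iron, which stood at 7.20, 6.74 and 7.07 in the frozen 48 h arrays, against 5.53, 5.29 and 6.04 in the unfrozen arrays and rose by 1.39 ± 0.24 (adjusted p = 0.0142), a call that was lost without unfrozen replicate 1 or 2 (highest adjusted p = 0.0839). Of 13 genes of the zinc regulon under Zap1, IZH4 (above) fell and no gene rose (7.69% against 0.815% of all genes called lower). The median was -0.26 (0.17 in the values as deposited).

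Several genes of mitosis fell. Of 21 genes of the mitotic cluster under Fkh2, Mcm1 and Ndd1 and of mitotic exit, 6 fell and 0 rose, which is 28.6% against 0.815% of all genes called lower, and the median difference was -0.78. CLB1, a mitotic B-type cyclin, stood at 8.54, 8.83 and 8.66 in the frozen 48 h arrays, against 10.55, 10.51 and 10.10 in the unfrozen arrays. The frozen 48 h arrays lay close together and below all unfrozen arrays, a difference of -1.71 ± 0.18 (adjusted p = 0.00264). CLB2, the main mitotic cyclin, stood at 7.43, 7.74 and 7.82 in the frozen 48 h arrays, against 9.12, 9.12 and 8.45 in the unfrozen arrays and differed by -1.23 ± 0.23 (adjusted p = 0.0215). HST3, a histone deacetylase expressed in mitosis, stood at 6.49, 6.17 and 6.36 in the frozen 48 h arrays, against 7.28, 7.59 and 7.53 in the unfrozen arrays and differed by -1.13 ± 0.17 (adjusted p = 0.00913). CDC20, the activator of the anaphase-promoting complex, differed by -0.81 ± 0.16 (adjusted p = 0.0265), CDC5, the polo kinase, by -1.15 and SWI5, a transcription factor of late mitosis, by -0.90. CLB1 stayed called without any single array, but CLB1, CLB2, HST3 and CDC20 were not called in the values as deposited. The call was lost for CLB2 without any one of unfrozen replicates 1 and 2 and frozen 48 h replicate 2 (highest adjusted p = 0.127), for HST3 without unfrozen replicate 2 (highest adjusted p = 0.0672), and for CDC20 without any one of unfrozen replicates 1 and 2, frozen 48 h replicate 2 and frozen 24 h replicate 2 (highest adjusted p = 0.155). It was lost too for CDC5 without any one of unfrozen replicates 1 and 2, frozen 48 h replicates 1 to 3 and frozen 24 h replicates 2 and 3 (highest adjusted p = 0.190). SWI5 lost its call whichever single array but unfrozen replicate 3 was left out (highest adjusted p = 0.203).

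The median of 18 G1 and S phase genes was -0.17 (0.25 in the values as deposited). Of them 1 fell and 0 rose (5.56% against 0.815% of all genes called lower). It was FAR1, an inhibitor of the G1 cyclin kinase that also acts in mating, which stood at 8.33, 7.95 and 7.93 in the frozen 48 h arrays, against 9.22, 9.23 and 8.91 in the unfrozen arrays and differed by -1.05 ± 0.17 (adjusted p = 0.0104). Its call did not hold throughout, since it was lost for FAR1 without any one of unfrozen replicates 1 and 2 and frozen 48 h replicate 2 (highest adjusted p = 0.0720). None of 9 histone genes was called, and their median was -0.66, with HHT1 at -0.82 (adjusted p = 0.235) and HHO1 at -0.71 (adjusted p = 0.281).

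SFG1, NRG2 and MIG2 were among the 15 largest falls. SFG1, a transcription factor of pseudohyphal growth, stood at 6.80, 7.24 and 7.14 in the frozen 48 h arrays, against 8.91, 8.90 and 8.93 in the unfrozen arrays, and its 3 unfrozen arrays were nearly equal. It differed by -1.85 ± 0.21 (adjusted p = 0.00264). NRG2, a repressor of glucose-repressed and filamentation genes, stood at 6.63, 7.33 and 7.49 in the frozen 48 h arrays, against 9.17, 9.10 and 8.91 in the unfrozen arrays and differed by -1.91 ± 0.25 (adjusted p = 0.00439). MIG2, a repressor that acts with Mig1 in high glucose, stood at 5.41, 5.88 and 4.40 in the frozen 48 h arrays, against 7.44, 7.56 and 6.54 in the unfrozen arrays and differed by -1.95 ± 0.43 (adjusted p = 0.0424). In each of these genes the groups did not overlap. SFG1 and NRG2 stayed called without any single array, and the call was lost for MIG2 without any one of unfrozen replicates 1 and 2, frozen 48 h replicates 1 to 3 and frozen 24 h replicates 1 and 2 (highest adjusted p = 0.196). Also among the 15 largest falls were YGR035C (-1.42 ± 0.25, adjusted p = 0.0166) and IRC8 (-1.37 ± 0.25, adjusted p = 0.0180), and each lost its call when frozen 48 h replicate 2 or one of unfrozen replicates 1 and 2 was left out (highest adjusted p = 0.0953 for YGR035C and 0.114 for IRC8).

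No measured gene of the cytosolic ribosomal protein and ribosome biogenesis lists was called in either direction. All 127 cytosolic ribosomal protein genes measured, out of 137 listed, lay below 0, with a median of -0.52, but 0 passed the test by limma, and the smallest adjusted p-values were those of RPL22B (-0.58, adjusted p = 0.223) and RPS9A (-0.53, adjusted p = 0.233). The medians relative to the unfrozen mean were -0.20, -0.23 and -1.07 in the 3 frozen 48 h arrays, so replicate 3 carried most of the difference. Quantile normalization gave a median of -0.04. The 116 ribosomal protein genes with a mean signal above 12 had a median of -0.52, and the 11 with a lower signal had -0.46. The 136 other genes with a mean signal above 12 had a median of -0.40, or -0.00298, -0.18 and -0.98 in the 3 frozen 48 h arrays relative to the unfrozen mean. None of 66 ribosome biogenesis genes was called, and their median was -0.02 (0.01 after quantile normalization and 0.40 in the values as deposited), with NOG2 at -0.51 (adjusted p = 0.109) and ERB1 at 0.53 (adjusted p = 0.236).

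**Figure D5:**
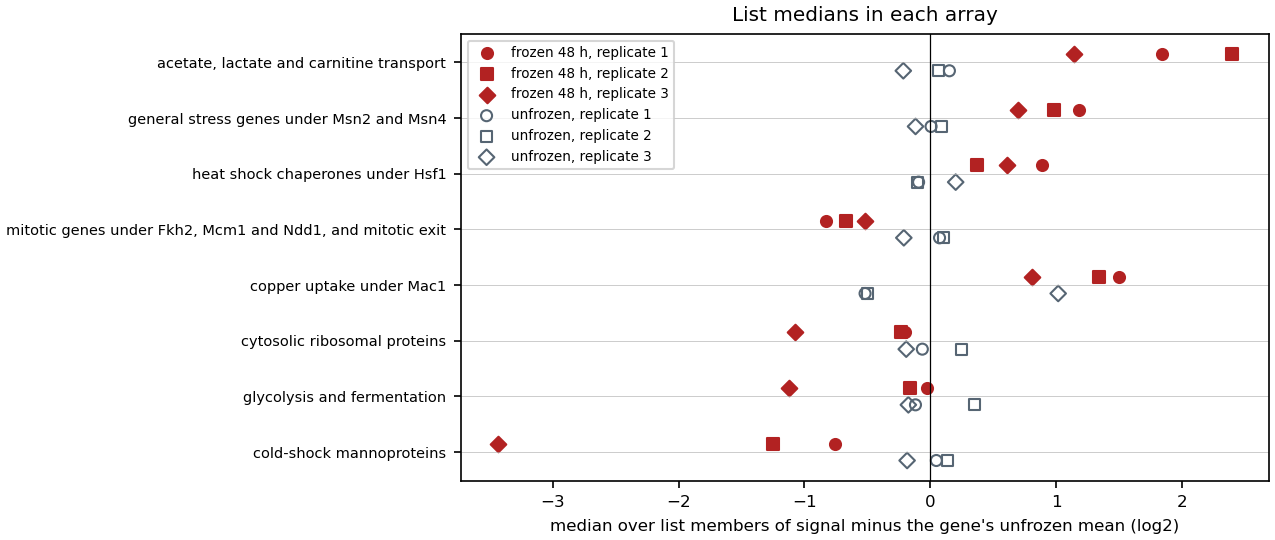
Median over each gene list (rows) of the scaled log2 signal relative to the unfrozen mean, for 8 of the lists in each frozen 48 h array (filled) and each unfrozen array (open). Frozen 48 h replicate 3 stands apart from the other frozen 48 h arrays for ribosomal protein genes (-1.07, against -0.20 and -0.23), whereas the lists of chaperones and of general stress genes are above 0 in all 3.

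None of 46 amino acid synthesis genes under Gcn4 was called, with a median of -0.24 (0.18 in the values as deposited), and neither was any of 21 genes of sulfate assimilation and methionine synthesis, with -0.36 (0.06 in the values as deposited). The smallest p-values in these lists were those of LYS20 (1.06, adjusted p = 0.0645) and GDH1 (-0.98, adjusted p = 0.0924), and of SUL1, a sulfate permease (1.22, adjusted p = 0.0542), and MUP1, the methionine permease (-1.02, adjusted p = 0.146).

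The median of 16 genes of the unfolded protein response was 0.25 (-0.09 with the median of every probe set as the scale). Of them 1 rose (6.25% against 2.09% of all genes called higher). It was ERO1, the oxidase that forms disulfide bonds in the endoplasmic reticulum, at 10.93, 10.53 and 11.11 in the frozen 48 h arrays, against 9.52, 9.63 and 10.03 in the unfrozen arrays (1.13 ± 0.22, adjusted p = 0.0265). The median of 19 autophagy genes was 0.19 (-0.15 with that scaling). Of them 1 rose (5.26% against 2.09% of all genes called higher). It was ATG9, the membrane protein that seeds autophagosomes, at 6.24, 6.09 and 6.48 in the frozen 48 h arrays, against 5.15, 5.03 and 5.12 in the unfrozen arrays (1.17 ± 0.24, adjusted p = 0.0307). None of 33 proteasome genes was called (median 0.22, or -0.12 with that scaling), with PRE1 at 0.63 (adjusted p = 0.0829) and RPN12 at 0.49 (adjusted p = 0.146). Neither call held throughout, since the call was lost for ERO1 without unfrozen replicate 1 or 2 (highest adjusted p = 0.150) and for ATG9 without any one of unfrozen replicates 1 to 3 and frozen 48 h replicates 1 to 3 (highest adjusted p = 0.138).

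None of 7 a-cell genes, the mating genes of this MATa strain, and none of 4 alpha-cell genes was called, with medians of -0.36 (0.06 in the values as deposited) and 0.47. The smallest p-values were those of BAR1, the alpha-factor protease (-0.36, adjusted p = 0.279, or 0.07 in the values as deposited), ASG7 (-0.50, adjusted p = 0.463), STE3, the a-factor receptor (0.77, adjusted p = 0.412), and SAG1, alpha-agglutinin (0.44, adjusted p = 0.564). Of the alpha-cell genes, which belong to the opposite mating type, SAG1 (7.27 to 8.73), STE3 (4.85 to 6.71) and MF(ALPHA)2 (3.58 to 4.99) lay above the background of 2.21 in all 9 arrays. MF(ALPHA)1 ranged from 0.09 to 3.49. The source of this signal was not tested. Among 16 sporulation and meiosis genes 2 rose (12.5% against 2.09% of all genes) and 1 fell (6.25% against 0.815%), with a median of 0.40. NDT80, the activator of the middle sporulation genes, stood at 6.10, 6.34 and 6.83 in the frozen 48 h arrays, against 4.29, 4.72 and 5.51 in the unfrozen arrays (1.58 ± 0.34, adjusted p = 0.0388). SMA1, a gene of spore membrane formation, stood at 4.07, 4.57 and 4.54 in the frozen 48 h arrays, against 2.55, 0.40 and 2.67 in the unfrozen arrays (2.52 ± 0.57, adjusted p = 0.0477), with 1 unfrozen array under background (1.91 with that array set to the background level). SPS4, a sporulation-specific gene, stood at 3.97, 4.55 and 4.54 in the frozen 48 h arrays, against 5.78, 5.61 and 5.69 in the unfrozen arrays and fell (-1.34 ± 0.28, adjusted p = 0.0349). None of the 3 calls held throughout, since the call was lost for NDT80 without any one of unfrozen replicates 1 and 2, frozen 48 h replicates 2 and 3 and frozen 24 h replicates 1 to 3 (highest adjusted p = 0.168), for SMA1 without any one of unfrozen replicates 1 and 2, frozen 48 h replicates 1 to 3 and frozen 24 h replicates 1 to 3 (highest adjusted p = 0.148), and for SPS4 without any one of unfrozen replicates 1 to 3, frozen 48 h replicates 1 and 2 and frozen 24 h replicate 2 (highest adjusted p = 0.159). ACT1, actin, which is often used as a reference, differed by -0.32 ± 0.42 (adjusted p = 0.746), and by 0.20 after quantile normalization and 0.11 in the values as deposited.

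Between the frozen groups no gene was called. Set against each other, frozen 48 h and frozen 24 h gave 0 genes called by limma (0% of 5396), with 22 at an unadjusted p under 0.05. The median size of the difference was 0.13, and the median 95% interval reached 0.52 to either side, or 0.47 in the fit with the replicate number as a block, where 0 genes were called and 31 had an unadjusted p under 0.05. A difference smaller than the reach of its gene's own interval could not be told apart from 0 in these fits. Larger ones could be missed too, because the interval is not adjusted over all genes. A difference of at least 1 either way was seen in 15 genes, and none was called. HSP12 differed by 0.12 (95% interval -0.57 to 0.80), YNL194C by 0.40 (95% interval -0.61 to 1.41), ADH2 by 0.54 (95% interval -0.36 to 1.43), OLE1 by -0.19 (95% interval -1.40 to 1.03) and CLB1 by -0.26 (95% interval -0.67 to 0.15), frozen 48 h minus frozen 24 h. The 15 genes that rose most lay between -0.33 and 0.60 of their frozen 24 h level, and the 15 that fell most between -0.77 and 0.14. By smallest p the genes higher in frozen 48 h cells were GCY1 by 0.41 (95% interval 0.12 to 0.70), ICP55, a mitochondrial peptidase, by 0.47 (95% interval 0.11 to 0.84) and TRL1, the tRNA ligase, by 0.70 (95% interval 0.13 to 1.27). The genes lower in them were RBL2, a tubulin-binding protein, by -0.50 (95% interval -0.86 to -0.14), YGR035C by -0.77 (95% interval -1.32 to -0.21) and LEU2. LEU2 lay under background in all 3 frozen 48 h arrays, against 3.94, 4.18 and 3.69 in the frozen 24 h arrays. It was at least 3.3-fold lower when the frozen 48 h arrays were set to the background level. None of these 6 passed the adjustment (adjusted p = 1.00 for each by limma), and LEU2 is deleted in the strain. Deviations of same-numbered arrays from their group means correlated at 0.589, 0.389 and 0.793 between the frozen groups, and a fit with the replicate number as a block also gave 0 calls. The 24 h and 48 h comparisons with unfrozen cells share the unfrozen arrays, so their values are only set side by side. Against unfrozen cells HSP12 differed by 3.51 ± 0.31 after 24 h and 3.63 ± 0.31 after 48 h, INO1 by 2.78 ± 0.38 and 3.37 ± 0.38, OLE1 by -2.50 ± 0.55 and -2.69 ± 0.55, and SFG1 by -1.37 ± 0.21 and -1.85 ± 0.21.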

How the data were processed

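Poly(A)-enriched RNA was hybridised to single-colour Affymetrix Yeast Genome 2.0 arrays, which hold probe sets of budding and fission yeast. The deposited values are a linear intensity per probe set, credited by the submitters' processing notes to GCOS, for which no version is given. Sample descriptions name GeneSpring 7.3.1 with scaling of each chip and division of each gene by unfrozen samples, but the deposited columns keep unequal medians and hold no ratios. The deposited intensities were taken to log2, and every array was set to one median over S. cerevisiae probe sets. A single S. cerevisiae gene was annotated for 5498 probe sets, 1746 belonged to S. pombe, 1 had several genes, 166 were controls and 3517 had no listed gene. Symbols came from the platform annotation, of which 12 were updated through RefSeq. Background was set at 2.21, under which 95% of the values of S. pombe probe sets lay, since no fission yeast RNA was applied. Genes with a mean above it entered, each by its brightest probe set.

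Group means over all 9 arrays were fitted with limma 3.58.1 in R 4.3.3 (empirical Bayes with a trend, two-sided), after the procedure had been tested on simulated data. Single measures were compared by exact permutation over arrays, and precision is limited by how few arrays form a group. Replicate numbers did not pair the frozen 48 h and unfrozen arrays (correlations of deviations -0.234, 0.128 and -0.0686).

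The 37 gene lists, which share no gene, and the naming rule were chosen with earlier results of these data known. They held 857 genes, of which 825 were tested. Named are the 15 genes that rose and the 15 that fell most among called genes with non-overlapping arrays, at most 4 called members of each list by smallest p (the 2 smallest where none was called), all copper genes, the deleted loci with ACT1, and 3 genes each way between the frozen groups. List members named beyond these, and the regulators and core enzymes given as not passing, were picked after their values were seen. Alternatives covered the scaling, a pseudocount, the background filter, the variance trend, the groups in the fit, the replicate block, replicate 3 as a batch, the ribosomal RNA signal as a covariate, averaging the probe sets of a gene, a 2-fold minimum, and each array or replicate number left out. The fit without the 2 brightest frozen arrays was added after the data were seen. Promoter sequences were not used here.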

Additional observations from a re-analysis of the deposited data

Results flagged for a closer look

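The ribosomal RNA control signal, measured by 17 control probe sets that no comparison of genes uses, was 9.07 ± 1.24 in the frozen 48 h arrays and 6.41 ± 0.84 in the unfrozen arrays (SD, n = 3 each, scaled log2 signal). The difference was 2.66, with every frozen 48 h array above every unfrozen one (exact two-sided permutation p = 0.1, the smallest that 3 against 3 arrays allow). It drew attention because a signal outside the gene measurements was above its level in the unfrozen cells. In the frozen 24 h arrays it was 7.94, 9.68 and 10.4. The 3' minus 5' difference of control probe sets, a measure of RNA integrity, was 1.13 ± 0.20 in the frozen 48 h arrays and 1.27 ± 0.05 in the unfrozen arrays (SD, n = 3 each), a difference of -0.14 (exact two-sided permutation p = 0.4). The part of the ribosomal RNA signal in the gene results was not tested.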

How the results depend on the processing

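Of the alternatives with all arrays, quantile normalization (141 calls), the pseudocount (157), no filter (157), the stricter filter (158), no variance trend (149), the mean of probe sets (156) and the 2-fold minimum (123) kept the count of 157 within 1.5 times. Values as deposited gave 54 calls, and the count was 265 with the median of every probe set as the scale, 84 with only the frozen 48 h and unfrozen arrays fitted, 237 with replicate 3 as a batch and 0 with the ribosomal RNA signal as a covariate. With the replicate number as a block, which these samples share only as a number, the count was 211, and 148 of the 157 genes stayed called. Leaving out 1 array gave 44 to 153 calls, with 99 without frozen 24 h replicate 2, and leaving out a replicate number gave 0 to 232 (56 without replicate 1, and 0 without replicate 2). Without the 2 brightest frozen arrays, an alternative added after the data were seen, 181 genes were called. Frozen 48 h against frozen 24 h gave 0 calls by limma under every alternative. The causes were not tested.

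Among the 58 called genes that are named, 22 stayed called without any single array, and every one missed the threshold with the ribosomal RNA covariate and without replicate 2. Only genes that were not called changed sign. For called genes no sign could change with arrays left out, because their groups did not overlap. In the values as deposited the difference was 0.106 for ACT1, 0.170 for ATX1, 0.068 for BAR1, 0.203 for COX11, 0.257 for COX17, 0.0541 for HIS3, 0.143 for MAC1, 0.0743 for RBL2 and 0.284 for SCO2. With the median of every probe set as the scale it was -0.221 for CRS5, -0.237 for CTR2, -0.137 for CUP2, -0.00498 for SCO1, -0.131 for SOD1 and -0.0467 for TRL1. Quantile normalization gave 0.196 for ACT1, and the ribosomal RNA covariate gave 0.148 for ACT1 and 0.013 for HIS3. With arrays or replicate numbers left out the range was -0.652 to 0.0455 for ACT1, -0.539 to 0.193 for ATX1, -0.478 to 0.312 for COX17, -0.46 to 0.41 for CRS5, -0.52 to 0.929 for CTR2, -0.0491 to 0.813 for SAG1, -0.105 to 0.866 for SCO1 and -0.211 to 0.716 for SOD1. Without the 2 brightest frozen arrays ACT1 was at 0.0455 and CRS5 at -0.0567.

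Only 3 arrays form a group, and 0.66 was the smallest rise and -0.64 the smallest fall that was called. Probe sets able to bind several transcripts stood for 4 of the called genes and 108 of those tested.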

Other observations

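Outside the gene lists 100 of the 157 genes were called, and the following were chosen after their values were seen. UBI4, PRB1, APE1, AMS1 and ATG34 were among the rises. UBI4, the polyubiquitin gene, stood at 11.34, 10.44 and 10.67 in the frozen 48 h arrays, against 9.03, 8.596 and 9.28 in the unfrozen arrays (1.84 ± 0.27, adjusted p = 0.00664 by limma). PRB1, vacuolar proteinase B, rose by 1.29 ± 0.25 (adjusted p = 0.0265), APE1, vacuolar aminopeptidase I, by 1.21 ± 0.17 (adjusted p = 0.00584), AMS1, vacuolar alpha-mannosidase, by 0.99 ± 0.21 (adjusted p = 0.0405), and ATG34, the receptor that carries Ams1 to the vacuole, by 0.86 ± 0.17 (adjusted p = 0.0307). In each of these genes all 3 frozen 48 h arrays exceeded all 3 unfrozen arrays, as they did in 11.9% of all genes. Also higher were PHO89, the sodium-coupled phosphate transporter (2.34 ± 0.26, adjusted p = 0.00264), CLD1, a cardiolipin-specific phospholipase (1.92 ± 0.27, adjusted p = 0.00584), SHC1, an activator of chitin synthase (1.90 ± 0.24, adjusted p = 0.00324), CYB2, the lactate dehydrogenase of mitochondria (0.96 ± 0.19, adjusted p = 0.0307), and ALD4, the mitochondrial aldehyde dehydrogenase (1.18 ± 0.25, adjusted p = 0.0390).

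TEM1, SPO12, DAM1 and NNF1 were among the falls. TEM1, the GTPase that starts the mitotic exit network, stood at 8.07, 7.76 and 7.25 in the frozen 48 h arrays, against 8.68, 8.69 and 8.61 in the unfrozen arrays (-0.96 ± 0.21, adjusted p = 0.0445). SPO12, another gene of mitotic exit, differed by -1.03 ± 0.24 (adjusted p = 0.0477), DAM1, a subunit of the ring that links kinetochores to microtubules, by -0.76 ± 0.15 (adjusted p = 0.0234), and NNF1, a kinetochore subunit, by -1.14 ± 0.20 (adjusted p = 0.0172). HO, the mating-type endonuclease, differed by -1.11 ± 0.21 (adjusted p = 0.0219), TEC1, a transcription factor of filamentous growth, by -1.16 ± 0.25 (adjusted p = 0.0424), and PHO4, the activator of phosphate genes, by -0.79 ± 0.17 (adjusted p = 0.0409). In membrane lipid metabolism CYB5, cytochrome b5, which passes electrons to sterol and lipid enzymes, differed by -1.06 ± 0.24 (adjusted p = 0.0442) and ALE1, a lysophospholipid acyltransferase, by -1.08 ± 0.24 (adjusted p = 0.0453). Of the genes named here UBI4, APE1, PHO89, CLD1 and SHC1 stayed called without any single one of the 9 arrays. The call was kept in 7 of the 9 removals for NNF1, 6 for HO, 5 for DAM1 and 4 for PRB1. It was kept in 3 for ATG34, CYB2 and TEC1, and in 2 for SPO12, CYB5 and ALE1. For TEM1, AMS1, ALD4 and PHO4 it was kept in only 1.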
